A study of Pomacea canaliculata with 12 samples.

Results

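Cephalic and oral tentacle of the freshwater apple snail Pomacea canaliculata were compared gene by gene, using 3 cephalic and 3 oral tentacle libraries, 6 of the 12 in the series. The members were fixed by their labels: every library titled as cephalic or oral tentacle was used, and libraries with the same replicate number (1, 2 or 3) were treated as pairs. The other libraries, 3 of eye stalk and 3 of retina, were used only to show where the differing genes were otherwise expressed. All 12 libraries were made from poly(A)-selected RNA extracted with Trizol. The series belongs to a study of camera-type eye regeneration, and its tissues were taken by amputation, except the retinas, which were extracted. The cephalic and oral tentacle groups differ only in tissue, as far as the labels say. The labels give no strain, age, sex or treatment, and do not say whether a library held tissue of 1 animal or of several. The p-values therefore cover at most library-to-library spread, part of which may be technical.

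The head of an apple snail carries a long pair of cephalic tentacles, with the eyes on short stalks beside their bases, and a second pair of oral (labial) tentacles flanking the mouth. Both pairs are muscular, ciliated and innervated appendages that serve touch and chemical sense, and the oral pair meets the substrate and food as the animal feeds. Genes in the deposited table carry LOC identifiers with no product name, and the reference table used here pairs none of them with a product. Therefore no gene is given a function, the tissues could not be checked against known marker genes, and the genes are ordered by how and where they were expressed. In bulk tissue, a gene carried by fewer cells and a gene with less RNA per cell cannot be told apart.

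Total counts were 21561988, 12128796 and 16825005 in cephalic tentacle replicates 1, 2 and 3, and 17161875, 10804847 and 11426763 in oral tentacle replicates 1, 2 and 3. Levels are given as CPM, counts brought to a common library size with TMM factors over all 12 libraries, and 16133 of the 21131 genes had enough counts in the tentacles to be tested. The largest axis of variation among the 6 libraries set replicate number 3 apart in both tissues. The first principal component of log2(CPM + 1), with 37.6% of the variance, held both libraries numbered 3 at -52.2 (cephalic) and -52.8 (oral), and the other 4 libraries between 8.4 and 42.2. The second, with 28.4%, separated the cephalic libraries (25.2 to 36.4) from the oral libraries (-57.3 to -7.9). Summed over genes, the tissue accounted for 25.8% of the variation among the 6 libraries on 1 degree of freedom, the replicate number for 52.9% on 2, and the remainder for 21.3% on 2.

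The cephalic and oral tentacles were alike in most genes. Most of the largest called differences were genes expressed in oral tentacle and nearly or fully undetected in cephalic tentacle. With the replicate number as a block, 9 genes were higher and 14 lower in cephalic than in oral tentacle (edgeR quasi-likelihood F-test, called below an adjusted p of 0.05), or 0.0558% and 0.0868% of the genes tested, and 0.143% together. The 9 higher genes had a median log2 fold change of 2.58 (cephalic over oral). The 14 lower genes had a median of -7.08, the same with genes at 0 counts set to their bounds. Over all genes tested the median size of the log2 fold change was 0.24. A further tier lay just outside the threshold: 128 genes had an adjusted p under 0.1, of which 68 were higher and 60 lower in cephalic tentacle, and 2778 genes (17.2%) had an unadjusted p under 0.05. In 22 of the 23 called genes the cephalic and oral libraries did not overlap, a property that 21.5% of all tested genes had. Which genes were called depended on the fit: 13 of the 23 were among the 34 genes (0.211%) called without the block. Of those 34 genes, 19 were higher and 15 lower in cephalic tentacle. All 23 kept their direction in all 16 alternatives tried. They were chosen from these same libraries, and all 23 were at least 2-fold apart the same way in every pair. A reversal was therefore hardly possible, and the kept direction adds no support. With any single tentacle library numbered 1 or 2 left out, edgeR called 0 genes at adjusted p under 0.05, with 1513 to 1905 genes at an unadjusted p under 0.05, whereas it called 77 higher and 152 lower without cephalic replicate 3 and 53 and 100 without oral replicate 3, and DESeq2 with the same block on all 6 libraries called 505 and 506.

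**Figure D1:**
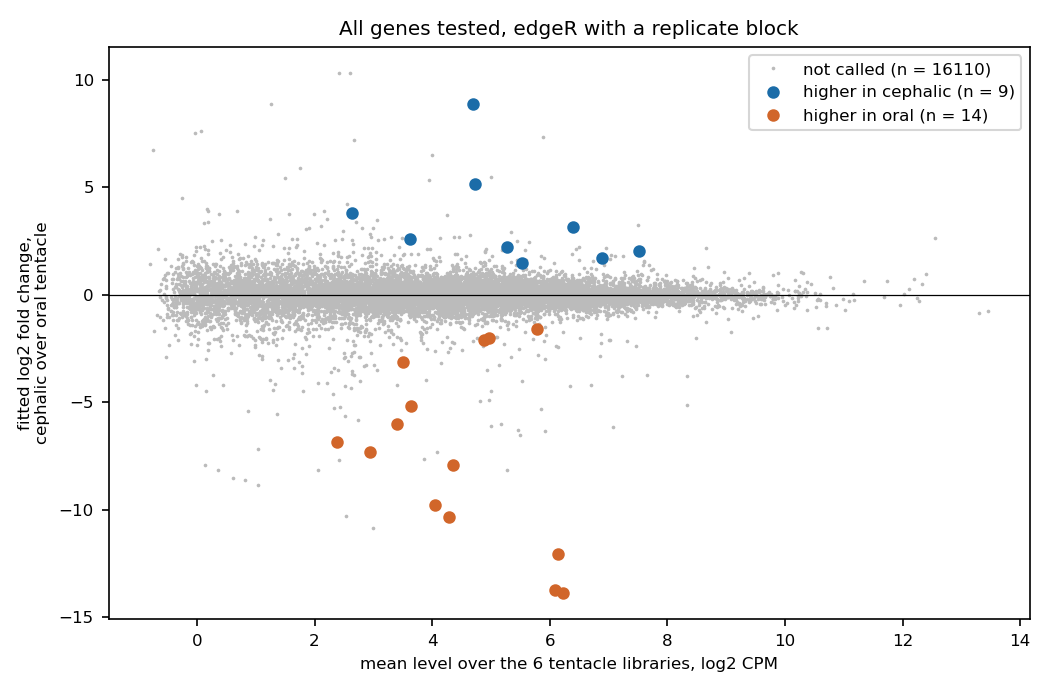
Fitted log2 fold change (cephalic over oral tentacle) against mean level (log2 CPM over the 6 tentacle libraries) for the 16133 genes tested. The 9 genes called higher in cephalic tentacle (blue) reach a log2 fold change of 8.88, and the 14 called higher in oral tentacle (orange) reach -13.88, a fitted value that for genes at 0 counts depends on the prior count.

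Among the genes higher in cephalic tentacle, LOC112575956 came nearest to a presence and absence pattern. It had 50.2, 46.0 and 43.3 CPM in cephalic replicates 1, 2 and 3, against 0.103, 0 and 0.155 CPM in oral replicates 1, 2 and 3. The oral libraries together held 4 counts of it and the cephalic libraries 2609. Its log2 fold change was 8.88 ± 0.43 (SE, worked back from the F statistic here and below, edgeR adjusted p = 0.020). It was also low elsewhere, with 0.718 to 2.69 CPM in eye stalk and 0 to 0.300 CPM in retina. LOC112554608 was likewise concentrated in cephalic tentacle, with 62.6, 40.8 and 36.1 CPM there against 1.85, 0.760 and 1.24 CPM in oral tentacle. Its log2 fold change was 5.14 ± 0.22 (SE, edgeR adjusted p = 0.016), and no eye stalk or retina library exceeded 4.90 CPM.

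LOC112564278 had the most even difference across the pairs. It had 111, 128 and 175 CPM in cephalic replicates 1, 2 and 3, and 12.2, 13.9 and 19.6 CPM in the oral libraries of the same numbers. The pairs differed 9.09-, 9.21- and 8.92-fold, so that the level differed between replicate numbers while the ratio between the tissues was nearly constant (log2 fold change 3.14 ± 0.10, SE, edgeR adjusted p = 0.013). In eye stalk it ran from 43.7 to 106 CPM and in retina from 21.5 to 57.8 CPM, above every oral library. LOC112553287 was low in oral tentacle only. It had 10.3, 9.40 and 11.2 CPM in cephalic and 0.721, 0.591 and 0.854 CPM in oral tentacle (log2 fold change 3.79 ± 0.28, SE, edgeR adjusted p = 0.040), while eye stalk held 5.11 to 7.49 CPM and retina 2.5 to 3.21 CPM.

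LOC112565168 was expressed in cephalic tentacle and eye stalk at like levels and was lower in oral tentacle and retina. It had 18.8, 17.6 and 20.6 CPM in cephalic tentacle against 3.45, 3.12 and 2.72 CPM in oral tentacle, with 14.0 to 29.3 CPM in eye stalk and 0.441 to 2.13 CPM in retina. Between the tentacles its fitted log2 fold change was 2.58 ± 0.20 (SE, edgeR adjusted p = 0.048). LOC112561698 had 66.7, 63.6 and 41.8 CPM in cephalic and 16.3, 11.5 and 8.62 CPM in oral tentacle, a fitted log2 fold change (cephalic over oral) of 2.22 ± 0.14 (SE; edgeR adjusted p = 0.036). Its eye stalk libraries, at 17.3 to 37.6 CPM, lay between the tentacles, and its retina libraries held 1.01 to 8.76 CPM.

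The most abundant of the 9 was LOC112561949, at 269 ± 22.5 CPM in cephalic and 64.2 ± 6.38 CPM in oral tentacle (SD, n = 3 each). Its libraries were at 265, 294 and 249 CPM in cephalic and 66.7, 56.9 and 68.9 CPM in oral tentacle, with a fitted log2 fold change (cephalic over oral) of 2.03 ± 0.14 (SE; edgeR adjusted p = 0.036). Eye stalk, at 56.4 to 74.1 CPM, was close to oral tentacle, and retina held 117 to 167 CPM. LOC112564040 had 162, 130 and 201 CPM in cephalic and 57.5, 32.8 and 60.02 CPM in oral tentacle (log2 fold change 1.70 ± 0.13, SE, edgeR adjusted p = 0.046). LOC112562639 had the smallest difference, with 53.7, 67.1 and 64.4 CPM in cephalic and 17.4, 22.6 and 24.3 CPM in oral tentacle (log2 fold change 1.49 ± 0.12, SE, edgeR adjusted p = 0.048), and its retina libraries were higher than either tentacle, at 68.3 to 101 CPM. Of these 9 genes, LOC112561698 and LOC112564040 were not called without the block (edgeR adjusted p = 0.061 and 0.075).

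**Figure D2:**
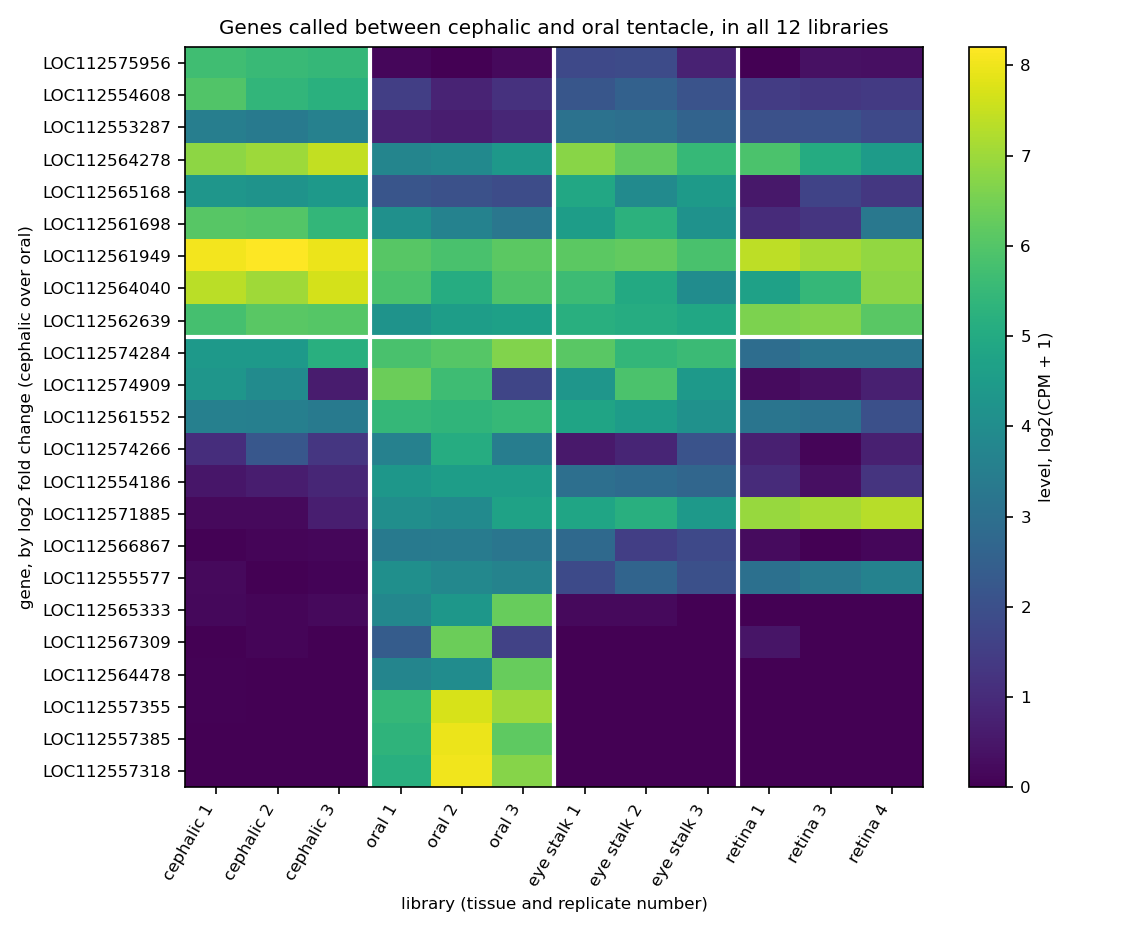
Level of the 23 called genes in each of the 12 libraries, as log2(CPM + 1) by colour, with genes ordered by log2 fold change (cephalic over oral) and a white line between the 9 higher and the 14 lower in cephalic tentacle. The bottom 6 genes are dark in all cephalic, eye stalk and retina libraries. Of the genes higher in cephalic tentacle, 8 of 9 reach 1 CPM in all 3 eye stalk libraries, about the share of all genes tested (88.6%).

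Among the 14 genes called lower in cephalic tentacle, the strongest differences were in 6 genes. These had at most 7 counts over the cephalic libraries and at least 1067 over the oral libraries. LOC112557318 and LOC112557385 had 0 counts in every cephalic, eye stalk and retina library. LOC112557318 had 35.4, 258 and 104 CPM in oral replicates 1, 2 and 3, so cephalic tentacle was at least 2130-fold lower, taking 3 counts over the cephalic libraries as the limit that a total of 0 allows (edgeR adjusted p = 0.036). LOC112557385 had 39.4, 248 and 71.6 CPM in oral replicates 1, 2 and 3, at least 1940-fold above cephalic tentacle by the same limit (edgeR adjusted p = 0.036). Both were highest in oral replicate 2 and lowest in oral replicate 1, so the oral libraries differed several-fold among themselves. Neither gene was called without the block (edgeR adjusted p = 0.094 for each). In genes at or near 0 counts in cephalic tentacle, the replicate terms of the fit can follow the oral libraries. The p-values with the block therefore measure little or none of the spread among the oral libraries for these 6 genes.

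LOC112557355 shared this pattern, with 0.0414, 0 and 0 CPM in cephalic replicates 1, 2 and 3 and 43.2, 206 and 126 CPM in oral replicates 1, 2 and 3. The 1 cephalic count against 4907 oral counts gave an oral to cephalic ratio of 6178, with a Poisson 95% interval of 1109 to 244004 (counting error only; edgeR adjusted p = 0.016). LOC112564478 and LOC112565333 formed a second such group, which was highest in oral replicate 3. LOC112564478 had 1 cephalic count, and 12.3, 15.03 and 77.4 CPM in oral replicates 1, 2 and 3, an oral to cephalic ratio that came to 1779 (Poisson 95% interval 319 to 70262; edgeR adjusted p = 0.036). LOC112565333 had 0.124, 0.0740 and 0.168 CPM in cephalic and 12.8, 19.3 and 78.0 CPM in oral tentacle, a fitted log2 fold change (cephalic over oral) of -7.93 ± 0.42 (SE; edgeR adjusted p = 0.024). The sixth gene, LOC112567309, rested mainly on 1 library, with 4.22, 80.9 and 2.10 CPM in oral replicates 1, 2 and 3 against 1 cephalic count (oral to cephalic ratio 1343, Poisson 95% interval 241 to 53057; edgeR adjusted p = 0.013). The last 3 of these were not called without the block, with edgeR adjusted p of 0.059 for LOC112564478, 0.054 for LOC112565333 and 0.14 for LOC112567309. LOC112557355 was called without it, at an edgeR adjusted p of 0.030.

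A second kind of gene was near-absent from cephalic tentacle but present in the oral tentacle and the eye. LOC112571885 had 0.166, 0.148 and 0.614 CPM in cephalic tentacle, against 15.4, 14.4 and 25.7 CPM in oral tentacle (log2 fold change -6.03 ± 0.35, SE, edgeR adjusted p = 0.033). It stood at 20.4 to 35.3 CPM in eye stalk and at 120 to 159 CPM in retina, so that cephalic tentacle was the only one of the 4 tissues below 1 CPM. LOC112555577 had 0.166, 0 and 0.0558 CPM in cephalic and 15.9, 13.1 and 11.7 CPM in oral tentacle (log2 fold change -7.31 ± 0.58, SE, edgeR adjusted p = 0.048), with 2.63 to 5.30 CPM in eye stalk and 7.13 to 11.4 CPM in retina.

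LOC112566867 and LOC112554186 were nearly even across the oral libraries and intermediate in eye stalk. LOC112566867 had 0.0414, 0.0740 and 0.112 CPM in cephalic and 9.37, 9.54 and 8.39 CPM in oral tentacle (log2 fold change -6.86 ± 0.45, SE, edgeR adjusted p = 0.036). LOC112554186 had 0.414, 0.592 and 0.838 CPM in cephalic and 19.2, 22.5 and 22.5 CPM in oral tentacle (log2 fold change -5.18 ± 0.26, SE, edgeR adjusted p = 0.020). Eye stalk held 1.88 to 5.95 CPM of LOC112566867 and 5.51 to 7.03 CPM of LOC112554186, and retina at most 0.189 and 1.35 CPM of them.

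The remaining 4 genes were expressed in both tentacles and differed by smaller folds. LOC112561552 was the steadiest, with 10.97, 10.7 and 9.33 CPM in cephalic and 43.1, 40.4 and 44.0 CPM in oral tentacle (log2 fold change -2.08 ± 0.14, SE, edgeR adjusted p = 0.036). LOC112574284 had 20.4, 20.8 and 35.5 CPM in cephalic and 56.1, 65.3 and 99.0 CPM in oral tentacle (log2 fold change -1.57 ± 0.11, SE, edgeR adjusted p = 0.038). LOC112574266 had 1.12, 3.70 and 1.45 CPM in cephalic and 11.2, 32.8 and 10.02 CPM in oral tentacle (log2 fold change -3.12 ± 0.21, SE, edgeR adjusted p = 0.036). In the last of these both tissues were highest in replicate 2, and in LOC112574284 both were highest in replicate 3.

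LOC112574909 was called only within the pairs. It had 18.7, 14.4 and 0.558 CPM in cephalic replicates 1, 2 and 3 and 80.6, 49.5 and 2.25 CPM in oral replicates 1, 2 and 3. The 2 tissues overlapped, since oral replicate 3 lay below cephalic replicates 1 and 2, but oral tentacle was 4.30-, 3.43- and 4.03-fold above cephalic tentacle within the pairs. With the block its log2 fold change was -1.99 ± 0.14 (SE, edgeR adjusted p = 0.039), and without it the edgeR adjusted p was 0.62. The other genes of this group that were not called without the block were LOC112574284 and LOC112574266, at adjusted p of 0.098 and 0.12 (edgeR).

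**Figure D3:**
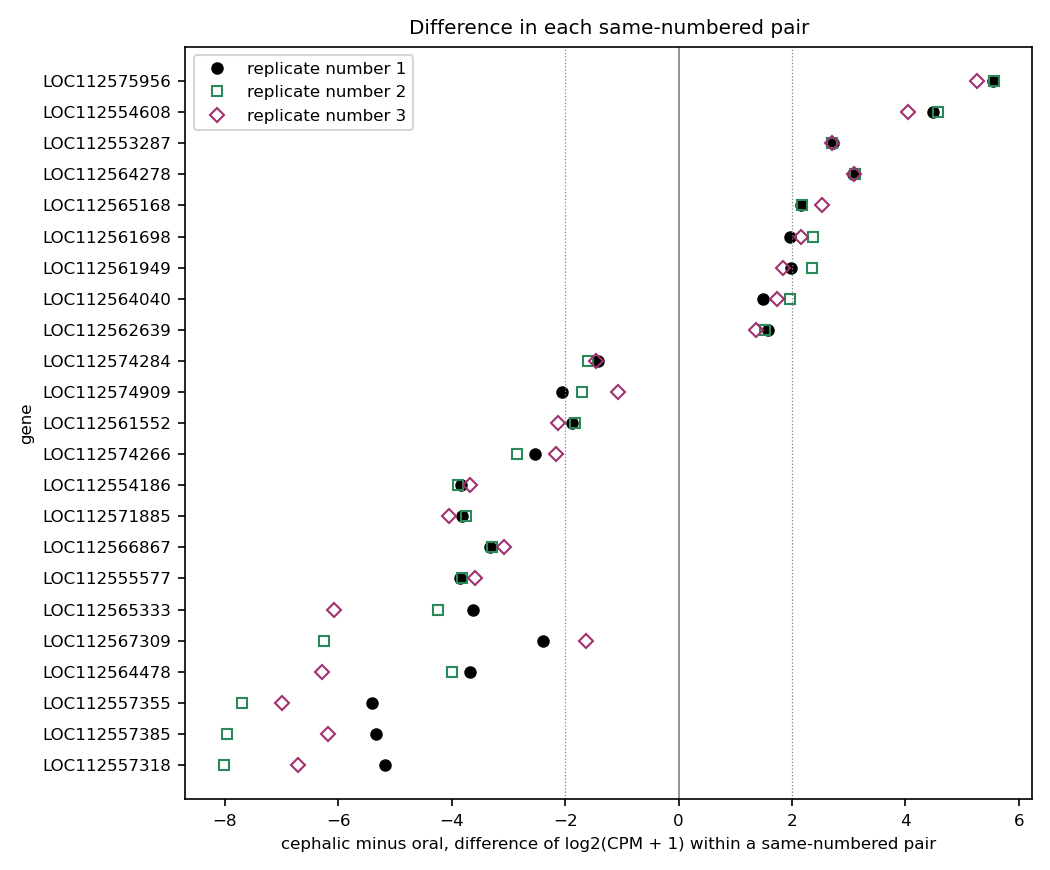
Difference of log2(CPM + 1), cephalic minus oral, within each same-numbered pair for the 23 called genes, with dotted lines at -2 and 2 (4-fold). All 3 pairs fall on the same side of 0 for every gene. They are nearly superimposed for LOC112564278 and spread over several log2 units for some genes lower in cephalic tentacle, such as LOC112567309.

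Pair by pair and with no model, 48 genes (0.298% of those tested) were at least 4-fold apart the same way in all 3 pairs on the log2(CPM + 1) scale, which understates the change of low genes. Of these, 16 were higher and 32 lower in cephalic tentacle, and 15 of the 48 were among the called genes. The most abundant of the 33 that were not called, a gene chosen after its values were seen, was LOC112574306. It had 185, 268 and 451 CPM in cephalic and 25.5, 35.7 and 25.4 CPM in oral tentacle, a log2 fold change of 3.26 (edgeR adjusted p = 0.081). LOC112554188 and its neighbour LOC112554187 were examples in the other direction, chosen in the same way. LOC112554188 had 5.26, 7.48 and 15.4 CPM in cephalic and 95.3, 294 and 134 CPM in oral tentacle (log2 fold change -4.21, edgeR adjusted p = 0.11). LOC112554187 had 3.6, 5.33 and 13.7 CPM in cephalic and 71.8, 238 and 101 CPM in oral tentacle (log2 fold change -4.23, edgeR adjusted p = 0.13). Genes near-absent from oral tentacle were also among the 33, with examples chosen in the same way. LOC112565444 had 5.42, 17.6 and 9.21 CPM in cephalic and 0 counts in oral tentacle (edgeR adjusted p = 0.095). LOC112557143 had 28.4, 36.4 and 20.7 CPM in cephalic and 0.309, 0.0844 and 0.466 CPM in oral tentacle (edgeR adjusted p = 0.059).

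Runs were 3 or more tested neighbours with a fitted log2 fold change of at least 2 in size the same way. Called genes with smaller changes could therefore not be in one. Of the 23 called genes, 5 lay in such runs, all 5 among the 6 strongest of those lower in cephalic tentacle. The sixth of these, LOC112567309, was in no such run. LOC112564040, at 1.7, fell below the cutoff. Its neighbours LOC112564396, LOC112564400 and LOC112564397 were also higher in cephalic tentacle, at 1.06, 2.12 and 2.18 (edgeR adjusted p = 0.14, 0.063 and 0.059). In the gene order of assembly ASM307304v1, LOC112557385, LOC112557355 and LOC112557318 sat within a run of 11 consecutive genes, from LOC112557299 to LOC112557341, that were all lower in cephalic than in oral tentacle. The fitted log2 fold changes in the run lay between -13.88 and -4.17, where those of genes at 0 cephalic counts depend on the prior count of the fit. Of the 11 genes, 3 were called, 6 had an edgeR adjusted p under 0.1, and 10 were at least 4-fold apart in every pair. The genes on either side did not share the pattern: LOC112557957, after the run, had 52.1, 66.7 and 62.9 CPM in cephalic and 55.5, 45.9 and 46.2 CPM in oral tentacle. LOC112558125, before it, ran the other way, with 199.8, 139 and 57.7 CPM in cephalic and 18.8, 60.3 and 12.6 CPM in oral tentacle (log2 fold change 2.22, edgeR adjusted p = 0.17). It was highest in eye stalk, at 254 to 1238 CPM.

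Within the run, 2 sorts of gene could be seen by their level in eye stalk. The adjacent genes LOC112557385, LOC112557406, LOC112557355 and LOC112557318 had no counts in eye stalk or retina. LOC112557406 had 0 counts in cephalic tentacle too, and 8.49, 18.8 and 3.26 CPM in oral tentacle (edgeR adjusted p = 0.095). The genes around them had traces in cephalic tentacle and eye stalk. LOC112558333 had 0.0828, 1.41 and 2.07 CPM in cephalic tentacle, 60.5, 223 and 30.8 CPM in oral tentacle, and 3.47, 8.98 and 0.239 CPM in eye stalk (log2 fold change between the tentacles -6.34, edgeR adjusted p = 0.14). LOC112557224 had 0.0828, 0.0740 and 0.391 CPM in cephalic tentacle, 40.1, 140 and 24.1 CPM in oral tentacle, and 1.24, 2.20 and 0.319 CPM in eye stalk (log2 fold change between the tentacles -8.14, edgeR adjusted p = 0.095). Oral replicate 2 was the highest library in all 11 genes.

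A second run of 4 tested neighbours held LOC112565333, LOC112564617, LOC112564478 and LOC112564591. LOC112564617 lay between the called genes, with 0 counts in cephalic tentacle and 4.89, 6.84 and 31.4 CPM in oral tentacle (edgeR adjusted p = 0.090). LOC112564591 had 0.124, 0 and 0 CPM in cephalic tentacle and 1.08, 0.844 and 7.69 CPM in oral tentacle (log2 fold change -5.39, edgeR adjusted p = 0.15). Here oral replicate 3 was the highest library in all 4 genes, unlike the first run. Over the whole assembly, 9 runs of 3 or more tested neighbours with a fitted log2 fold change of at least 2 in size the same way were found, 7 of them lower in cephalic tentacle, holding 40 genes. That size of change was fitted for 1.78% of the genes tested. The runs were sought after the called genes had been seen, and they are given as a description. Neighbouring genes of like sequence can share reads, and whether the genes of a run are copies of one another was not tested.

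**Figure D4:**
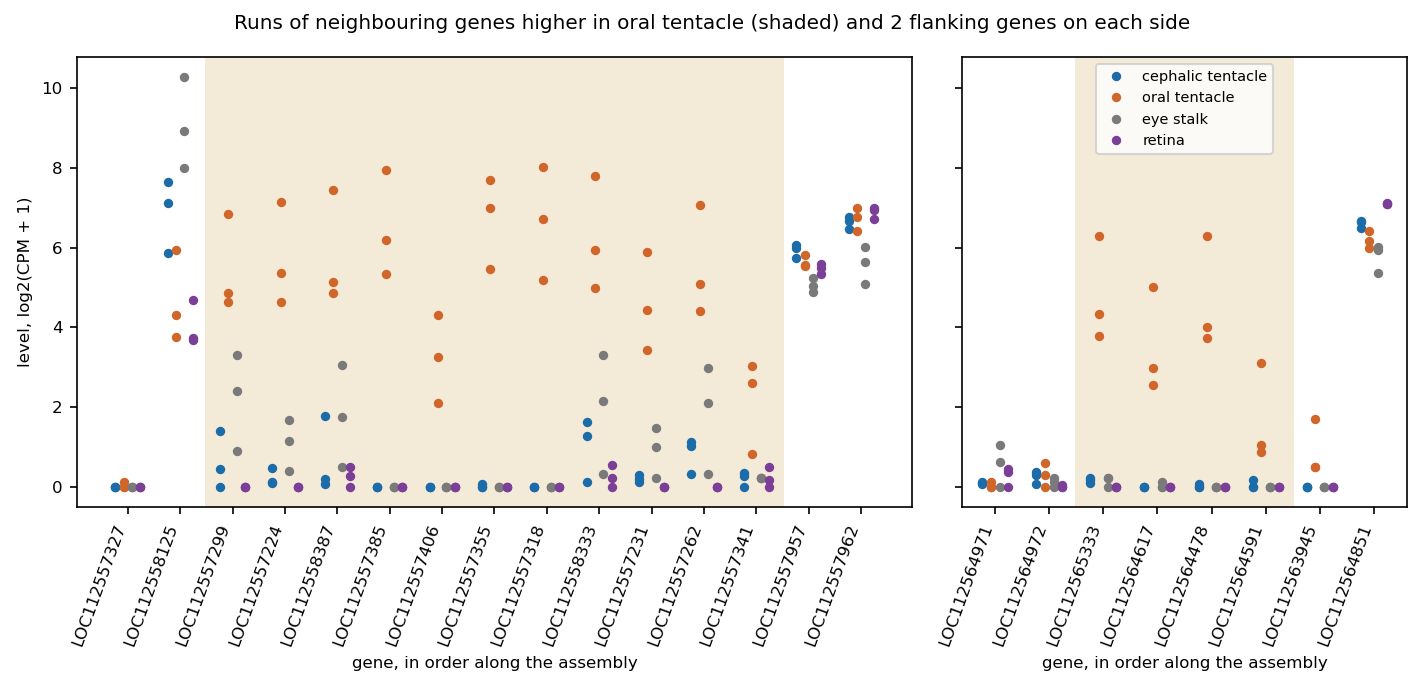
Level, as log2(CPM + 1), in each library of the genes of the 2 runs that hold called genes (shaded, 11 genes at left and 4 at right) and of the 2 nearest genes of the deposited table on each side, in their order along the assembly. Orange points (oral tentacle) stand above blue points (cephalic tentacle) throughout both shaded runs. The flanking genes LOC112557957 and LOC112564851 are at 28.5 CPM or more in every library of all 4 tissues. LOC112563945, directly after the run at right and too low to be tested, shares its pattern. It has 0.412, 0.422 and 2.25 CPM in oral replicates 1, 2 and 3 and 0 in every other library. The flanking genes LOC112557327, LOC112564971 and LOC112564972 are at 1.06 CPM or less throughout.

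Genes that set one tentacle apart from every other tissue were looked for by level, over all genes tested and with no test. The first class held genes with at least 5 CPM in the 3 libraries of 1 tissue and at most 1 CPM in the other 9. For cephalic tentacle it held 1 gene, LOC112564753, with 12.5, 9.48 and 5.70 CPM there, 0 counts in oral tentacle and at most 0.772 CPM elsewhere (edgeR adjusted p = 0.10 between the tentacles). For oral tentacle it held 5 genes, all among those called: LOC112557318, LOC112557385, LOC112557355, LOC112564478 and LOC112565333. Genes at no more than 1 CPM in 1 tissue and at least 2 CPM in the other 9 libraries were 7 for cephalic and 3 for oral tentacle. The 7 included LOC112571885 and LOC112555577, described above, and LOC112559216, which had 0, 0.0740 and 0.0558 CPM in cephalic tentacle, 10.6, 11.8 and 5.51 CPM in oral tentacle, 8.96 to 23.2 CPM in eye stalk and 33.7 to 108 CPM in retina (edgeR adjusted p = 0.059 between the tentacles). The 3 low only in oral tentacle were LOC112553287, LOC112572397 and LOC112565334. LOC112572397 had 4.30, 2.74 and 6.98 CPM in cephalic and 0.0515, 0.253 and 0 CPM in oral tentacle (edgeR adjusted p = 0.13), with 14.0 to 33.2 CPM in retina. LOC112564753 and LOC112559216 were chosen for these patterns after their values were seen, as were the genes that were low only in oral tentacle.

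Levels in eye stalk and retina show where else the called genes were expressed, and the difference between the 2 sets of called genes was not tested. At least 1 CPM in all 3 eye stalk libraries was found for 8 of the 9 genes higher in cephalic tentacle and for 7 of the 14 higher in oral tentacle, against 88.6% of all genes tested. In retina this held for 7 of the 9 and for 4 of the 14, against 76.9% of all genes tested. A total of 0 counts in both eye stalk and retina was found for 0 of the 9 and 4 of the 14, against 0.409% of all genes tested. Each of these 4 held at most 1 cephalic count and so passed the low-count filter only through oral tentacle. Of the 4, 3 lay in 1 run of neighbours, so they may not be separate cases. The share over all genes tested is not a like background for them.

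The replicate numbers also differed in single genes, and whether more genes were called between numbers or between tissues depended on the fit. In the edgeR fit with tissue and number, 66 genes (0.409% of those tested) differed between the numbers (edgeR quasi-likelihood F-test, adjusted p under 0.05), and 2 of them also differed between the tissues, LOC112574909 and LOC112567309. For LOC112567309 this rested on the oral libraries alone, at 4.22, 80.9 and 2.10 CPM in replicates 1, 2 and 3. Its cephalic libraries held 1 count together, too few to show a difference shared by the pairs. With limma voom 3 genes differed between numbers, against 9 higher and 13 lower in cephalic tentacle, and edgeR without replicate 3 called 30 between numbers, against 42 higher and 92 lower. With replicate 2 left out edgeR called 0 in either comparison, and DESeq2 called 1013 between numbers, against 505 and 506 between tissues. The 66 genes differed between numbers by a median of 5.17 on the log2 scale between the highest and the lowest number. In 55 of them replicate 3 stood apart, in 7 replicate 2 and in 4 replicate 1. A switch between presence and absence was seen in 30 of the 66, with at most 1 CPM in both tissues of 1 number and at least 10 CPM in both tissues of another, and in 75 of all 16133 genes tested. The labels do not say what a number stands for.

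LOC112568895 was the clearest case. It had 0.869, 1.04 and 359 CPM in cephalic replicates 1, 2 and 3 and 0.772, 1.35 and 378 CPM in oral replicates 1, 2 and 3 (edgeR adjusted p = 0.0025 between numbers, 0.73 between tissues). LOC112568807 had 0.124, 58.2 and 51.4 CPM in cephalic and 0.154, 72.7 and 59.2 CPM in oral tentacle, and so was nearly undetected in number 1 of both tissues (edgeR adjusted p = 0.0050 between numbers). LOC112571826 and LOC112567926 were high in number 3. LOC112571826 had 4.55, 3.998 and 110 CPM in cephalic and 3.66, 3.12 and 66.0 CPM in oral tentacle (edgeR adjusted p = 0.015 between numbers). LOC112567926 had 0.952, 0.148 and 85.8 CPM in cephalic and 1.39, 0.169 and 61.3 CPM in oral tentacle (edgeR adjusted p = 0.015 between numbers). LOC112567428 was highest in number 2, with 1.37, 46.0 and 6.03 CPM in cephalic and 1.18, 41.4 and 4.50 CPM in oral tentacle (edgeR adjusted p = 0.015 between numbers).

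These genes were uneven among the eye stalk libraries as well, which had no part in their choice. A 10-fold or larger range over the 3 eye stalk libraries was found for 26 of the 66 genes (39.4%), against 2.26% of all genes tested. In retina it was found for 7 of them, against 2.95% of all genes tested. LOC112568895 had 133, 142 and 3.35 CPM in eye stalk replicates 1, 2 and 3, low in the number that was high in both tentacles. LOC112567428 had 3.47, 64.2 and 2.63 CPM there, high in the number that was high in both tentacles. LOC112571826, high in number 3 of both tentacles, was low in that number of eye stalk, at 5.99 CPM. In LOC112568807 and LOC112567926 another number stood apart in eye stalk than in the tentacles. The same number stood apart in eye stalk as in the tentacles, whether high or low, in 31 of the 66 genes. It did so in 10 of the 26 with the 10-fold range. With 3 numbers some matches arise anyway, so no result is drawn from these counts. The share over all genes tested was not computed.

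**Figure D5:**
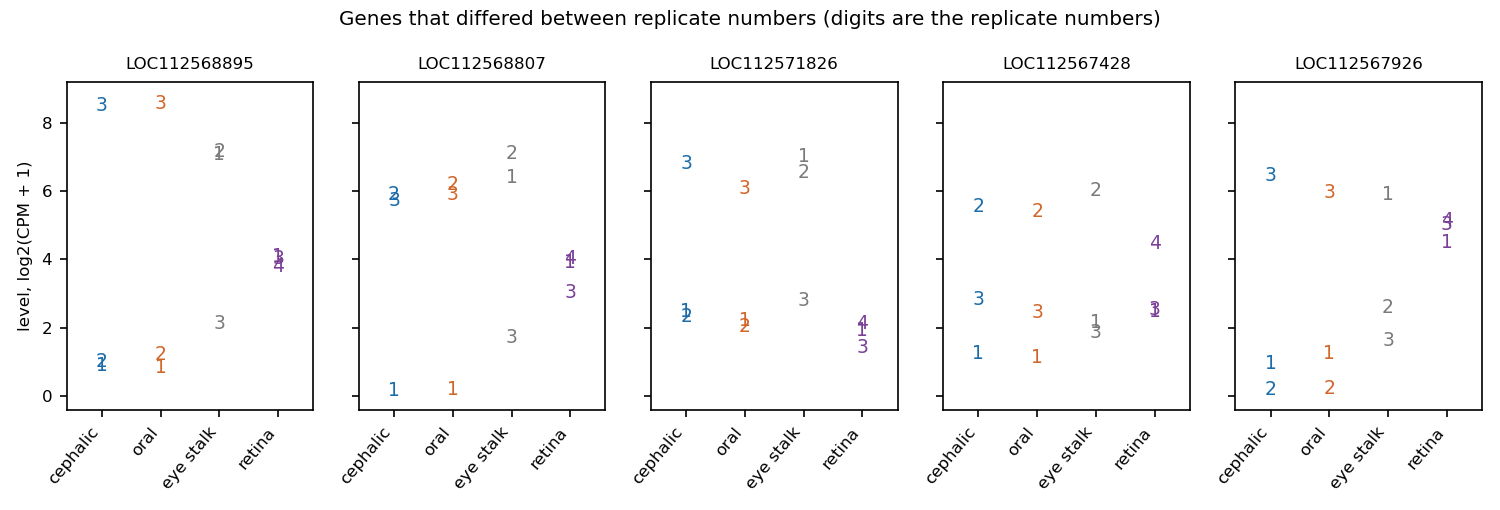
Level, as log2(CPM + 1), of the 5 genes with the largest F between replicate numbers and a mean of at least 10 CPM, by tissue, each library drawn as its replicate number. In cephalic and oral tentacle each digit stands at about the same height, as for LOC112568895 with number 3 at 359 and 378 CPM, while in eye stalk number 3 of that gene is low, at 3.35 CPM. Number 2 of LOC112567428 is high in eye stalk, at 64.2 CPM, as in both tentacles.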

How the data were processed

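Poly(A) RNA from 4 tissues was sequenced in 12 libraries, and the values the authors deposited are raw whole-number counts for each gene. Per the submitters' processing notes, STAR was used; for its version, the counter, strand setting, build and annotation, the entry is "not given in the sources used here". All 21131 identifiers were found in the gene table of assembly ASM307304v1, which was used only for which genes neighbour each other. It gives no products, so the lists of genes and cell type markers, defined by product words, were not used, and no sequence is shown.

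Genes were filtered with filterByExpr (minimum count 10) on the 6 tentacle libraries, scaled by TMM and tested with the quasi-likelihood F-test of edgeR 4.0.16 (R 4.3.3, limma 3.58.1), with tissue and replicate number as terms and Benjamini-Hochberg adjustment over all 16133 genes tested. Displayed CPM values use TMM factors over all 12 libraries. Each SE is the size of the log2 fold change divided by the square root of F, and is not an error estimated by the fit. The design left 2 residual degrees of freedom, a value that was not read from the fit. Genes at or near 0 counts in a whole tissue can have fewer. The replicate numbers come from the titles. Same-numbered libraries were paired by the rule of the comparison, and the following correlations did not decide it. Deviations from the tissue means correlated, across genes, at r = 0.41, 0.31 and 0.51 between same-numbered cephalic and oral libraries 1, 2 and 3, and at -0.37 to 0.07 between libraries of different number. The deviations within a tissue sum to 0, so the second range is tied to the first. Genes are not replicates, and the values are a description. Counts of same-tissue libraries differed by more than sampling noise (chi-square per degree of freedom 35.01 to 127.44), so none was counted as a duplicate.

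Named are all genes called at adjusted p under 0.05, and the 5 genes with the largest F between replicate numbers and a mean of at least 10 CPM; genes outside this rule are marked in the text as chosen after their values were seen or appear as neighbours of called genes. The comparison, lists and rules were chosen with earlier results of these data known. Alternatives were a fit without the block, RLE scaling, no low-count filter, a fit of all 12 libraries, DESeq2 1.42.0, limma voom, each library or pair left out, and other pseudocounts and folds. Poisson intervals (95%) and the 3-count limit for a total of 0 cover counting error only. The scripts were tested on simulated data.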

Additional observations from a re-analysis of the deposited data

How the results depend on the processing

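Against 9 genes higher and 14 lower in cephalic than in oral tentacle with the replicate block, the fit with no replicate block called 19 and 15. No low-count filter gave 24 and 31, all 12 libraries with the block 16 and 23, all 12 without it 26 and 32, and DESeq2 with the block 505 and 506. With 1 library or 1 pair left out, the counts ran from 0 to 77 and from 0 to 152. They were 0 without cephalic replicate 1 or 2, oral replicate 1 or 2, or both libraries numbered 2, with 1506 to 1905 genes at an unadjusted p under 0.05 in edgeR. Leaving out cephalic replicate 3, oral replicate 3 or both gave 77 and 152, 53 and 100, and 42 and 92, and all 23 genes were among them; without replicate 1 they were 1 and 6. RLE scaling (9 and 14) and voom (9 and 13) gave like counts. Over the 23 genes and 16 alternatives, 200 of 368 values kept direction and call, 168 kept direction without the call and 0 reversed. The genes were chosen from these same libraries, so a kept direction adds no support. The 66 genes that differed between numbers became 109 with no low-count filter, 1013 with DESeq2 and 3 with voom, and 0 to 66 with 1 number left out. The genes at least 4-fold apart in all pairs (16 higher, 32 lower) became 24 and 52 with a pseudocount of 0.25 CPM, and 89 and 91 at 2-fold. Runs of neighbours held 128 genes at a log2 fold change of at least 1 and 22 at 3, with a longest run of 11 each time; these thresholds were chosen after seeing the data. With at most 2 residual degrees of freedom, 1 library can decide a call, and a library left out under the block leaves its partner without weight. The causes were not tested.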

Other observations

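Another run of neighbours, LOC112561140, LOC112561139, LOC112561136 and LOC112561135, stood higher in cephalic tentacle, and none of the 4 genes was called. LOC112561135 had 157, 145 and 17.5 CPM in cephalic replicates 1, 2 and 3, against 0.257, 0.253 and 1.01 CPM in oral replicates 1, 2 and 3 (log2 fold change 7.36, edgeR adjusted p = 0.14). LOC112561136 had 39.4, 36.9 and 3.91 CPM in cephalic and 0, 0.0844 and 2.02 CPM in oral tentacle (edgeR adjusted p = 0.35). In both genes cephalic replicate 3 was the lowest cephalic library and oral replicate 3 the highest oral library. LOC112561139 was even across the cephalic libraries and lowest in oral replicate 3, with 12.1, 12.4 and 11.1 CPM in cephalic and 2.01, 2.20 and 0.854 CPM in oral tentacle (edgeR adjusted p = 0.090).

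In 2 further runs, cephalic replicate 3 differed from cephalic replicates 1 and 2 and lay near the oral libraries. LOC112569207, in a run of 5 genes, had 0.207, 0 and 40.9 CPM in cephalic tentacle, 50.8, 38.8 and 37.2 CPM in oral tentacle, and 46.5 to 93.8 CPM in eye stalk (edgeR adjusted p = 0.44 between the tentacles). LOC112558013, in a run of 4 genes, had 0.414, 0.518 and 15.6 CPM in cephalic tentacle, 8.75, 3.97 and 17.4 CPM in oral tentacle, and 50.8 to 55.4 CPM in eye stalk (edgeR adjusted p = 0.34 between the tentacles). These genes were chosen after their values were seen.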
